A study of Mus musculus with 10 samples.

Results

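The cyclin-dependent kinase inhibitors are the 7 genes of the Cip/Kip family (Cdkn1a, Cdkn1b and Cdkn1c) and the Ink4 family (Cdkn2a, Cdkn2b, Cdkn2c and Cdkn2d). They were taken by name, with no filter on their values, though earlier results of these data were known. The source was 22180 genes that had a probe set of their own on the array, and each of the 7 had 1 probe set that carried its symbol alone. Gene expression was measured with one-colour Affymetrix arrays on total RNA of mouse embryonic fibroblasts (MEFs), connective tissue cells put into culture from the dorsal skin of embryos at embryonic day 13.5. There were 5 arrays of Zbtb4 knock-out (KO) cells and 5 arrays of wild-type (WT) cells. The labels give no strain, passage or treatment, do not say whether each array came from an embryo of its own, and do not say which part of Zbtb4 is deleted. The Y-linked gene Eif2s3y was at 7.17, 2.50, 6.83, 2.36 and 2.33 on KO arrays 1 to 5 and 7.07, 2.60, 7.06, 2.34 and 2.37 on WT arrays 1 to 5, so each genotype holds cells of embryos of both sexes, and its 5 arrays are not repeats of one culture. Whether arrays of the same sex are repeats is not stated, so the spread behind the p-values may be partly technical.

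Cyclin-dependent kinases drive cells from one phase of the cell cycle to the next, and these inhibitors hold them back. Ink4 proteins bind Cdk4 and Cdk6 and keep them from pairing with D-type cyclins, while Cip/Kip proteins bind complexes of cyclins with their kinases, Cdk2 above all. In cultured MEFs, p21 (from Cdkn1a), p16 and Arf (both from Cdkn2a) and p15 (from Cdkn2b) are known for their part in the growth arrest called senescence. Zbtb4 encodes a protein whose zinc fingers recognise methylated CpG sites, and in human cells ZBTB4 has been described as a repressor of CDKN1A, acting with the zinc finger protein Miz-1 (ZBTB17) and the Sin3 corepressor. The comparison asked which transcripts depend on Zbtb4.

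The start sites show where CpG sites lie near these genes, which is why a few are given here. RefSeq (GRCm38.p6) held windows of 300 bases, 250 before and 50 after a start, for 6 of the 7 inhibitors, 9 windows in all, and none for Cdkn1c was used. Cdkn1a and Cdkn2a each had 2 starts, and CpG sites are in capitals in the sequences below, read 5′ to 3′ on the gene's strand. The upstream Cdkn1a start lay at chr17:29090729-29091028 on the + strand and the downstream one at chr17:29093519-29093818 on the + strand. The upstream Cdkn2a start, at chr4:89294570-89294869 on the - strand, is that of Arf, and the downstream one, at chr4:89282143-89282442 on the - strand, is that of p16.
Cdkn1a upstream start: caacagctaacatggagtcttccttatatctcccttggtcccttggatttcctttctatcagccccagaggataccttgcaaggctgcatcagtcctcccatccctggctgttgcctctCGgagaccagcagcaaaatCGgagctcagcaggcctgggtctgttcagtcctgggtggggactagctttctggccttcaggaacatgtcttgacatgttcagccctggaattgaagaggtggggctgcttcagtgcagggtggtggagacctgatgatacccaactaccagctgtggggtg
Cdkn1a downstream start: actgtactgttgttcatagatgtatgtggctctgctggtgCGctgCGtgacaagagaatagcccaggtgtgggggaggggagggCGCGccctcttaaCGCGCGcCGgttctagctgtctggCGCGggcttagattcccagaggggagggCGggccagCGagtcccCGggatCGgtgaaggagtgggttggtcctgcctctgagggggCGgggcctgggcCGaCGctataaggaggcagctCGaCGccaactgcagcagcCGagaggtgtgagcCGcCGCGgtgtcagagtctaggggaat
Cdkn2a Arf start: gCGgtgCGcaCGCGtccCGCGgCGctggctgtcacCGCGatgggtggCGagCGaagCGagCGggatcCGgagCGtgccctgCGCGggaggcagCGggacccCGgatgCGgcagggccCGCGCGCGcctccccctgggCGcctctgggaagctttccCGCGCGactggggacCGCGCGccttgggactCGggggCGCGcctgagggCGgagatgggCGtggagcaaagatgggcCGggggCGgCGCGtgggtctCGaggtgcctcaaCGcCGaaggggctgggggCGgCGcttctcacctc
Cdkn2a p16 start: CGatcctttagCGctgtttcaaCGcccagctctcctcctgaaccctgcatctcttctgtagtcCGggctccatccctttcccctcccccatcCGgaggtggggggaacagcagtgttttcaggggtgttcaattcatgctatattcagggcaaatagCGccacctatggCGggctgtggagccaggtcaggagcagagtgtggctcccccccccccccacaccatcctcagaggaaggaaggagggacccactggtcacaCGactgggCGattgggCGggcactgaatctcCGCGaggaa

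The 2 Cdkn1a windows differed in CpG content, with 2 sites upstream and 23 downstream. The Arf window held 45 CpG sites, more than 98.1% of 32851 RefSeq promoter windows, and the p16 window held 12, while the median window held 7. Among the other inhibitors, the Cdkn1b window had 30, the Cdkn2b window 18, the Cdkn2d window 22 and the Cdkn2c windows 33 and 8. The letters GGGCGG, the box bound by Sp1, occurred on either strand in 7 of the 9 windows, against 35.7% of all windows. The letters CTGCNA, the core of the site bound by the related protein Kaiso (Zbtb33), occurred on either strand in 1 of the 9, that of Cdkn1b, against 48.4% of all windows. Overlapping matches were counted separately, and all these counts describe letters only. Methylation was not measured in these samples. The array has 1 probe set for Cdkn2a, so transcripts from its 2 starts cannot be told apart here.

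The knocked-out gene was lower in KO cells. Its log2 expression value was 5.44, 5.76, 5.04, 5.62 and 5.39 on KO arrays 1 to 5 and 6.06, 6.03, 5.94, 6.23 and 6.11 on WT arrays 1 to 5. The groups did not overlap, which was so, with KO lower, for 0.446% of all genes. The log2 difference, KO minus WT, was -0.62 with a 95% interval from -0.88 to -0.36 (limma adjusted p over all genes = 0.628). How much intact transcript remained cannot be read from this. Probes outside the deletion would detect any mutant transcript too, and where the probes lie against the deletion is not known here. Neither is signal over background.

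None of the 7 inhibitors passed the threshold, a limma p-value under 0.05 after Benjamini-Hochberg adjustment over all 22180 genes. The share of all genes that passed was 0.0%. At an unadjusted p under 0.05 there was 1 inhibitor, Cdkn1a, higher in KO cells, against 5.98% of all genes in either direction and 3.25% that were higher. The groups of arrays overlapped for all 7, whereas 0.987% of all genes had groups that did not overlap in either direction. Means were higher in KO cells for 3 inhibitors and lower for 4, and the median log2 difference was -0.015, beside 50.7% of means higher and a median of 0.002 over all genes. That median ran from -0.0609 without KO array 1 to 0.0798 without KO array 2. All 7 had values above the median gene on all 10 arrays, where the median of named genes lay between 4.29 and 4.34, but probe sets differ in brightness and the levels of different inhibitors were not compared.

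**Figure D1:**
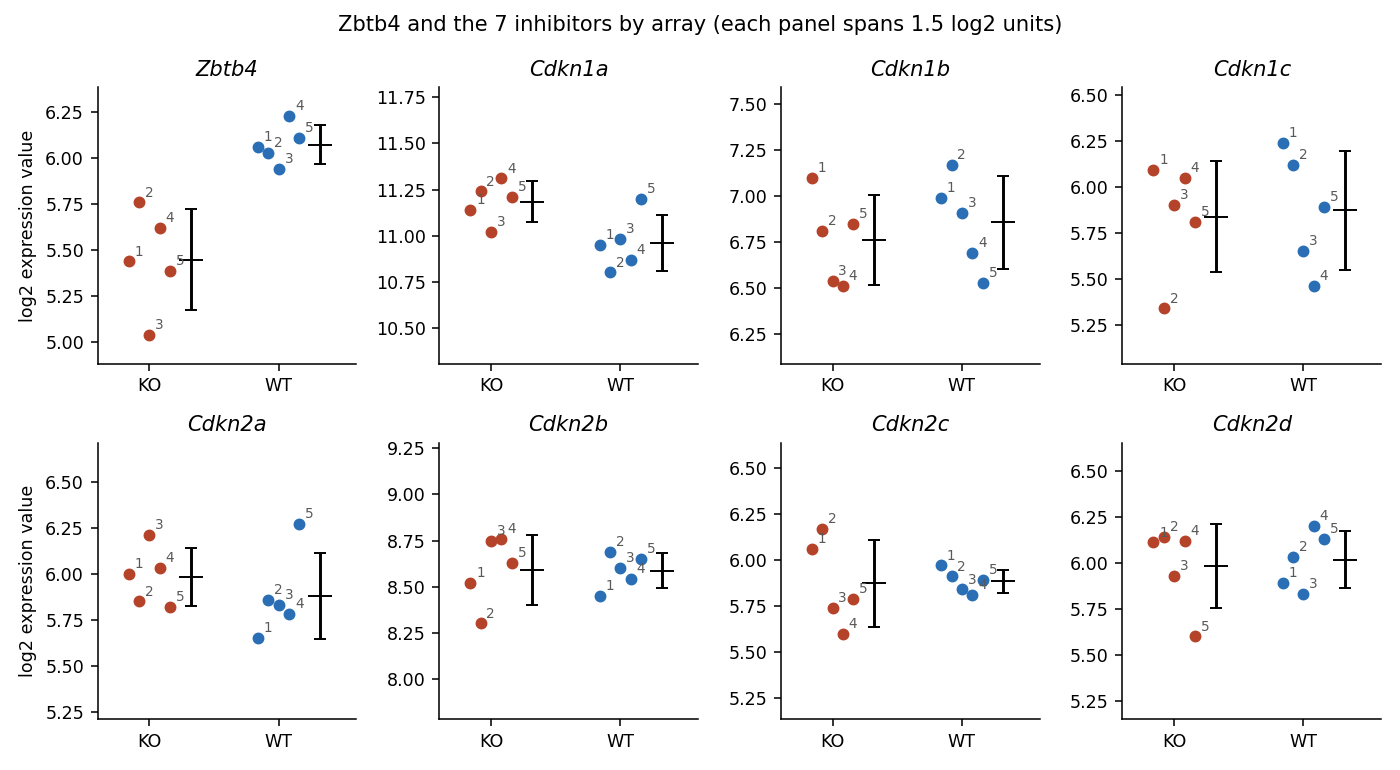
Log2 expression values of Zbtb4 and of the 7 inhibitors on 5 KO arrays (red, left) and 5 WT arrays (blue, right), with replicate numbers beside the points and the mean ± SD as black bars; every panel spans the same number of log2 units. Zbtb4 is the panel in which the genotypes do not overlap, and Cdkn1a is the inhibitor whose KO arrays lie highest against its WT arrays.

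Among the Cip/Kip genes, Cdkn1a encodes p21, the inhibitor that p53 induces after DNA damage and in senescence. Its log2 value was 11.14, 11.24, 11.02, 11.31 and 11.21 on KO arrays 1 to 5, against 10.95, 10.80, 10.98, 10.87 and 11.20 on WT arrays 1 to 5. All KO arrays lay above WT arrays 1 to 4, and WT array 5 lay among the KO arrays, so that the KO value was the higher one in 23 of 25 pairs of a KO with a WT array. The mean was 11.18 ± 0.11 in KO cells and 10.96 ± 0.15 in WT cells (SD, n = 5 each). The log2 difference was 0.23 with a standard error of 0.0897, which is 1.17-fold with a 95% interval from 1.02-fold to 1.34-fold. The exact two-sided permutation test over all splits of the arrays gave p = 0.0317, where 5 against 5 arrays cannot give less than 0.00794. After adjustment over all genes the limma p-value was 0.821, and 7.8% of all genes differed by at least as much in either direction. With single arrays left out the difference ran from 0.186 without WT array 2 to 0.286 without WT array 5, with adjusted p-values of 0.926 and 0.624. The unadjusted limma p, 0.026 on all arrays, was above 0.05 without KO array 2 (0.0527) or 4 (0.0643) or WT array 2 (0.0693) or 4 (0.06).

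Cdkn1b encodes p27, which restrains Cdk2 in resting cells and whose protein level is set largely by ubiquitin-driven degradation. Its log2 value was 7.10, 6.81, 6.54, 6.51 and 6.85 on KO arrays 1 to 5 and 6.99, 7.17, 6.91, 6.69 and 6.53 on WT arrays 1 to 5. Both genotypes spanned nearly the same range, with KO arrays 3 and 4 and WT array 5 at the low end. The log2 difference was -0.09 with a 95% interval from -0.39 to 0.20 (limma adjusted p = 0.931, exact permutation p = 0.571). It came to -0.179 without KO array 1 and to -0.0158 without WT array 2.

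Cdkn1c encodes p57, an imprinted gene expressed from the maternal copy and used in embryonic growth control. It was the most variable inhibitor, at 6.09, 5.34, 5.90, 6.05 and 5.81 on KO arrays 1 to 5 and 6.24, 6.12, 5.65, 5.46 and 5.89 on WT arrays 1 to 5. Its pooled standard deviation within genotypes, 0.31, exceeded that of 92.6% of the 2831 genes whose mean lay within 0.5 log2 units of its own. KO array 2 and WT array 4 were low, and the other arrays of both genotypes overlapped. The log2 difference was -0.04 with a 95% interval from -0.39 to 0.32 (limma adjusted p = 0.985, exact permutation p = 0.865). Its sign turned without KO array 2, to 0.0884, and also without WT array 1 or 2.

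Among the Ink4 genes, Cdkn2a gives rise to p16, which blocks Cdk4 and Cdk6, and in another reading frame to Arf, which shields p53 from Mdm2. Its log2 value was 6.0, 5.85, 6.21, 6.03 and 5.82 on KO arrays 1 to 5, against 5.65, 5.86, 5.83, 5.78 and 6.27 on WT arrays 1 to 5. WT array 5 was the highest of all 10, and the other WT arrays lay in the lower part of the range of the KO arrays or below it. The log2 difference was 0.10 with a 95% interval from -0.14 to 0.35 (limma adjusted p = 0.904, exact permutation p = 0.452). It came to 0.202 without WT array 5 and to 0.0466 without WT array 1.

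Cdkn2b, the neighbour of Cdkn2a, encodes p15, which TGF-beta induces. Its log2 value was 8.52, 8.30, 8.75, 8.76 and 8.63 on KO arrays 1 to 5 and 8.45, 8.69, 8.60, 8.54 and 8.65 on WT arrays 1 to 5. KO arrays reached both above and below the WT range, and the means, 8.592 ± 0.19 in KO and 8.585 ± 0.09 in WT cells (SD, n = 5 each), lay 0.01 apart. The 95% interval of the difference ran from -0.20 to 0.21, which is from 0.87-fold to 1.16-fold (limma adjusted p = 0.994, exact permutation p = 0.944). Mtap, the nearest protein-coding gene on the other side of Cdkn2a in RefSeq, which encodes an enzyme of methionine salvage, differed by -0.076 (limma adjusted p = 0.893).

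Cdkn2c encodes p18. Its log2 value was 6.06, 6.17, 5.74, 5.60 and 5.79 on KO arrays 1 to 5 and 5.97, 5.91, 5.84, 5.81 and 5.89 on WT arrays 1 to 5. The 5 WT arrays lay close together, and all 5 KO arrays lay outside their range, 2 above and 3 below. The standard deviation was 0.23 in KO and 0.06 in WT cells, and this difference in spread was not tested. The means lay close together, with a log2 difference of -0.01 and a 95% interval from -0.24 to 0.21 (limma adjusted p = 0.989, exact permutation p = 0.889).

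Cdkn2d encodes p19Ink4d, a different protein from mouse p19Arf. Its log2 value was 6.11, 6.14, 5.93, 6.12 and 5.60 on KO arrays 1 to 5 and 5.89, 6.03, 5.83, 6.20 and 6.13 on WT arrays 1 to 5. KO array 5 was the lowest of all, and the other KO arrays lay within the WT range. The log2 difference was -0.03 with a 95% interval from -0.28 to 0.21 (limma adjusted p = 0.977, exact permutation p = 0.833), and it turned to 0.0623 without KO array 5.

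**Figure D2:**
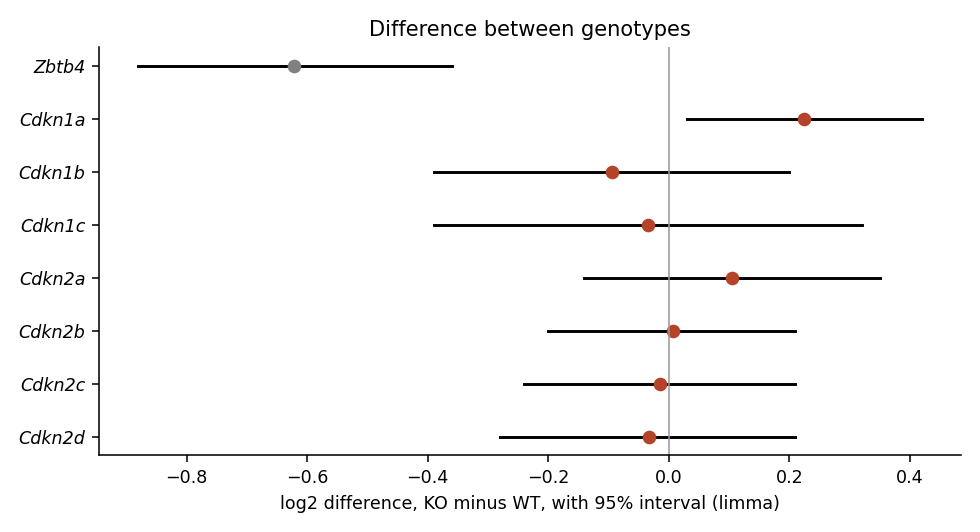
Log2 difference, KO minus WT, of Zbtb4 (grey) and of the 7 inhibitors (red), with the limma 95% interval as a horizontal bar. The interval of Cdkn1a, from 0.03 to 0.42, lies above 0 before adjustment over all genes, and the intervals of the other 6 inhibitors span 0.

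The inhibitors did not share one pattern across arrays. For each pair of inhibitors, and for each inhibitor with the mean of 19 genes of dividing cells, a correlation was computed over the 10 arrays on deviations from the genotype means, 28 relations in all. The relation of Cdkn2b with Cdkn2c had the smallest p, with Pearson's r = -0.85 (permutation p = 0.00163, adjusted 0.0456) and Spearman's rho = -0.78 (permutation p = 0.0101, adjusted 0.283). It passed adjustment by Pearson's r and not by rho, and r was -0.62 without KO arrays 2 and 4, the arrays farthest from the median of Cdkn2c. The permutations exchanged all 10 arrays across genotypes, although the spread differed between them. The SD was 0.23 in KO and 0.06 in WT cells for Cdkn2c, and 0.19 and 0.09 for Cdkn2b. The p-values of this relation may therefore be too small. Taking out 2 genotype means also left fewer than 10 free values, so the p-values of all 28 relations may be too small. KO array 2 had the highest Cdkn2c and the lowest Cdkn2b value of all 10 arrays, and KO array 4 had the lowest Cdkn2c and the highest Cdkn2b value. The 5 KO arrays stood in exactly opposite orders for the 2 genes, and the 5 WT arrays did not. The neighbours Cdkn2a and Cdkn2b gave r = 0.55 (permutation p = 0.0991, adjusted 0.396) and rho = 0.67 (permutation p = 0.0386, adjusted 0.511). Cdkn1a and Cdkn2a gave r = 0.30 (permutation p = 0.406, adjusted 0.738) and rho = 0.04 (permutation p = 0.92, adjusted 0.954).

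Genes of dividing cells were set beside the inhibitors because the inhibitors act on the cell cycle. Cdkn1a gave r = -0.70 with their mean (permutation p = 0.025, adjusted 0.35) and rho = -0.52 (permutation p = 0.134, adjusted 0.511). The relation rested on KO array 4 and WT array 5, without which r was -0.14. Cdkn1b gave r = 0.63 (permutation p = 0.0541, adjusted 0.396), Cdkn2c r = 0.58 (permutation p = 0.0768, adjusted 0.396) and Cdkn2b r = -0.51 (permutation p = 0.136, adjusted 0.476), and their rho values were 0.50 (permutation p = 0.146, adjusted 0.511), 0.54 (permutation p = 0.114, adjusted 0.511) and -0.61 (permutation p = 0.067, adjusted 0.511). Without the same 2 arrays, r was 0.19 for Cdkn1b, 0.46 for Cdkn2c and -0.27 for Cdkn2b. For the others it came to 0.81 for Cdkn2d, against 0.06 on all arrays, to 0.35 for Cdkn2a, against -0.39, and to -0.19 for Cdkn1c, against -0.27. None of the relations with dividing cells passed after adjustment.

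**Figure D3:**
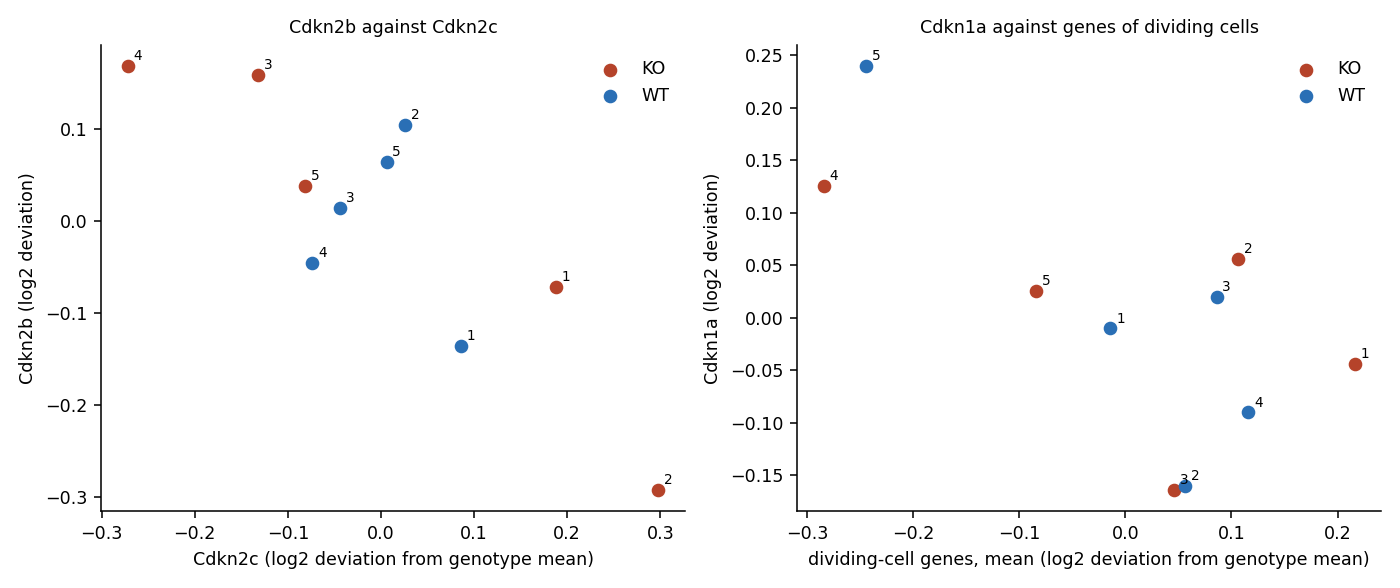
Deviations from the genotype mean, in log2 units, for 5 KO arrays (red) and 5 WT arrays (blue) with replicate numbers; left, Cdkn2b against Cdkn2c, and right, Cdkn1a against the mean of 19 genes of dividing cells. On the left KO arrays 2 and 4 form the ends of the trend, and on the right KO array 4 and WT array 5 stand apart at the left.

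KO array 4 and WT array 5, on which that relation rested, were each the highest of their genotype for Cdkn1a. On KO arrays 1 to 5 the mean of the dividing-cell genes deviated from its average over 10 arrays by 0.12, 0.01, -0.05, -0.38 and -0.18, and on WT arrays 1 to 5 by 0.08, 0.15, 0.18, 0.21 and -0.15. KO arrays 4 and 5 and WT array 5 were thus lowest, while KO array 2, with the second highest Cdkn1a value, lay near 0. The mean of 21 other p53 targets was highest on KO array 4, at 0.16, and WT array 5, at 0.17, and lay between -0.14 and 0.02 on the others. These targets were 1 of 9 lists of the pathway, and their mean is shown here with its values known. The mean of 10 skeletal muscle markers was highest on the same 3 arrays, at 0.20 on KO array 4, 0.29 on KO array 5 and 0.16 on WT array 5, and lay between -0.23 and -0.02 on the rest. This was 1 of 6 lists of cell type markers, and it was singled out with its values known. Of these markers 6 means were higher and 4 lower in KO cells, with a median log2 difference of 0.059. Acta1 (skeletal actin) differed by 0.66 and Des (desmin) by 0.45, without passing (limma adjusted p = 0.821 and 0.839). Both were named for the smallest p-values in the list, and neither followed the list mean on every array. Acta1 was at 8.99 and 9.0 on KO arrays 2 and 3, against 9.03 and 8.97 on KO arrays 4 and 5. Des was lower on KO array 5, at 6.77, than on KO arrays 2 and 3, at 7.09 and 6.88. The 4 lower ones, Tnnt1, Myog, Myh3 and Myf5, differed by -0.08, -0.02, -0.01 and -0.01. Of the 10 markers, 5 lay below the median gene on all arrays. The part of these differences between arrays in the values of Cdkn1a was not tested.

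**Figure D4:**
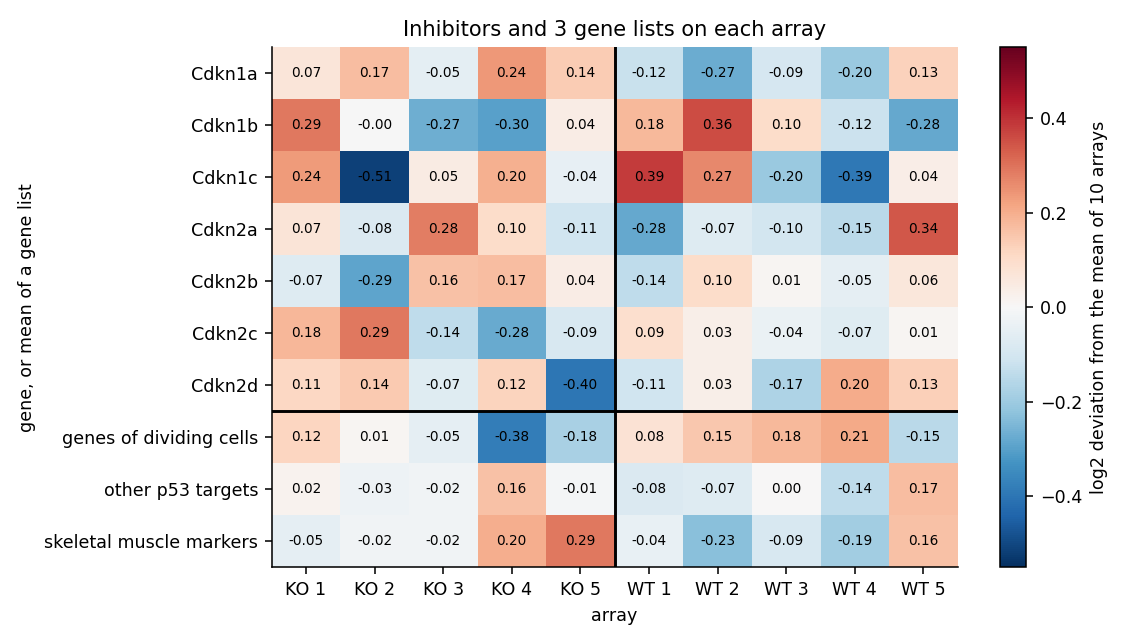
Log2 deviation from the mean of 10 arrays, as colour and printed value, for the 7 inhibitors (top rows) and the means of 3 gene lists (bottom rows) on KO arrays (left of the line) and WT arrays (right of it). KO array 4 and WT array 5 have low values for genes of dividing cells, -0.38 and -0.15, and high ones for other p53 targets, 0.16 and 0.17.

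The genes most alike in pattern to each inhibitor were sought among 10323 named genes brighter than the median gene, by Pearson's r of deviations from the genotype mean over the 10 arrays. With so many genes and 10 arrays high values are plentiful, and 7 to 32 genes per inhibitor had r over 0.9. For Cdkn1a they were the DNA repair gene Mgmt, the kinase gene Mapk13 and the imprinted gene Ndn, each with r = 0.96. For Cdkn1b they were Itga11 and Nfib, each at 0.95, and Meaf6 at 0.94, and for Cdkn1c Klhl24 at 0.96 and the exocyst genes Exoc6 and Exoc1, each at 0.93. For Cdkn2a they were Cox5a and Fyn, each at 0.96, and Phf23 at 0.94, and for Cdkn2b Phb2 at 0.98, Pop4 at 0.96 and Ndrg1 at 0.95. For Cdkn2c they were Septin11 at 0.96 and Id3 and Gab1, each at 0.93, and for Cdkn2d Ubxn2a at 0.95, Nhej1 at 0.94 and Dele1 at 0.93. None of these genes passed the comparison of genotypes.

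The direct partners of the inhibitors did not pass either. Of 10 measured genes for cyclins, their kinases and Pcna, the replication clamp that p21 binds, 0 passed, with 2 means higher and 8 lower in KO cells and a median log2 difference of -0.036 (-0.0836 without KO array 1 and -0.0218 without KO array 4). The S-phase cyclin gene Ccna2 was at 8.552 ± 0.29 in KO and 8.808 ± 0.16 in WT cells (SD, n = 5 each), and its log2 difference was -0.26 (limma adjusted p = 0.839). Ccnd2, a D-type cyclin gene, differed by 0.16 and Cdk4, the kinase that Ink4 proteins bind, by -0.09 (limma adjusted p = 0.84 and 0.873). Among 11 genes for retinoblastoma-family proteins and E2F factors, which the kinases act on, 6 means were higher and 5 lower, with a median of 0.001 that ran from -0.0272 without WT array 4 to 0.0289 without WT array 5. E2f4, the E2F factor best known as a repressor in resting cells, was at 7.448 ± 0.12 in KO and 7.673 ± 0.11 in WT cells (SD, n = 5 each), a difference of -0.22 that did not pass (limma adjusted p = 0.821). Tfdp1, the dimer partner of E2F factors, differed by -0.11 and Rbl1, which encodes p107, by -0.15, both with an adjusted p of 0.858.

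Parts of the ubiquitin ligases that destroy Cip/Kip proteins had 1 of 9 means higher and 8 lower in KO cells, with a median log2 difference of -0.076 and 0 that passed. Skp2, which marks p27 for destruction, was the one of the 9 whose groups did not overlap, against 0.446% of all genes with KO lower, at 7.20, 7.15, 7.14, 7.12 and 7.08 on KO arrays 1 to 5 and 7.24, 7.37, 7.26, 7.50 and 7.24 on WT arrays 1 to 5. KO array 1 and WT arrays 1 and 5 all but met, and the difference of -0.19 did not pass (limma adjusted p = 0.821). Cul4a differed by -0.15 and Dtl, the substrate receptor that directs p21 for degradation, by -0.31 (limma adjusted p = 0.83 and 0.835). The arrays measure RNA, so these values say nothing about the amounts of p27 or p21 protein.

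Other p53 target genes had 14 of 21 means higher in KO cells and 7 lower, with a median log2 difference of 0.029 and 0 that passed. That median was -0.00158 without WT array 4 and 0.0556 without WT array 5. Rrm2b, a ribonucleotide reductase subunit gene, differed by 0.17, and the cell death genes Bbc3 and Pmaip1 by -0.18 and 0.43 (limma adjusted p = 0.841, 0.842 and 0.842). Trp53 itself is not analysed here because no probe set carries its symbol alone. Zbtb17, the partner described for human ZBTB4 at CDKN1A, differed by -0.03 (limma adjusted p = 0.986). With corepressors, Myc and Max and the paralogues Zbtb33 and Zbtb38 it made a list of 10, of which 2 means were higher and 8 lower and 0 passed, with a median of -0.052 that came to -0.031 without WT array 4. Hdac3, a histone deacetylase gene, differed by -0.17, Myc by -0.21 and Max by 0.12 (limma adjusted p = 0.841, 0.841 and 0.842). Hdac2 was the one in this list whose groups did not overlap, from 8.90 to 8.98 on KO arrays and from 8.99 to 9.08 on WT arrays, a difference of -0.07 (limma adjusted p = 0.886). It was 1 of 10, against 0.446% of all genes with KO lower, and was named after its values were seen.

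Regulators of the Ink4a/Arf locus, among them Polycomb proteins that keep it silent, had 7 of 17 means higher and 10 lower in KO cells, with a median log2 difference of -0.013 (-0.1 without WT array 5 and 0.0204 without WT array 1). Among the Polycomb genes, Cbx8 differed by 0.29, Cbx7 by -0.21 and Eed by 0.13 (limma adjusted p = 0.821, 0.83 and 0.848), and Cbx8 and Cbx7 lay below the median gene on all arrays. Foxo factors, TGF-beta and Smad genes and Sp1 and Sp3, which act on Cdkn1a, Cdkn1b or Cdkn2b, had 7 of 11 means higher and 4 lower, with a median of 0.003 that ran from -0.022 without KO array 5 to 0.0274 without WT array 4. Sp3 differed by 0.16, Foxo1 by 0.05 and Sp1 by -0.06 (limma adjusted p = 0.857, 0.921 and 0.926). Of 9 imprinted or neighbouring genes around Cdkn1c and Igf2, 4 means were higher and 5 lower, with a median of -0.066, and Cd81 differed by 0.13, Phlda2 by 0.15 and Igf2 by 0.13 (limma adjusted p = 0.842, 0.854 and 0.854). That median turned to 0.0421 without WT array 3 and came to -0.0215 without KO array 1, -0.00975 without KO array 4 and -0.0136 without WT array 4. It also turned, to 0.0139, with the dimmest 40% of genes left out. In this list 3 of the 9 genes, Phlda2 among them, lay below the median gene on all arrays. None of the genes in these 3 lists passed.

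Genes of dividing cells had 1 of 19 means higher and 18 lower in KO cells, with a median log2 difference of -0.219, and 0 passed. At an unadjusted p under 0.05 there were 4, all lower in KO cells, against 2.73% of all genes that were lower at that level. The kinesin gene Kif23 differed by -0.31, the kinase gene Aurkb by -0.31 and the spindle gene Tpx2 by -0.25 (limma adjusted p = 0.821 for each). The median came to -0.132 without KO array 4, the array with the highest Cdkn1a value. It came to -0.298 without WT array 5, the WT array with the highest Cdkn1a value. Genes measured on the same 10 arrays are not independent, so 18 lower means are not 18 separate observations.

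**Figure D5:**
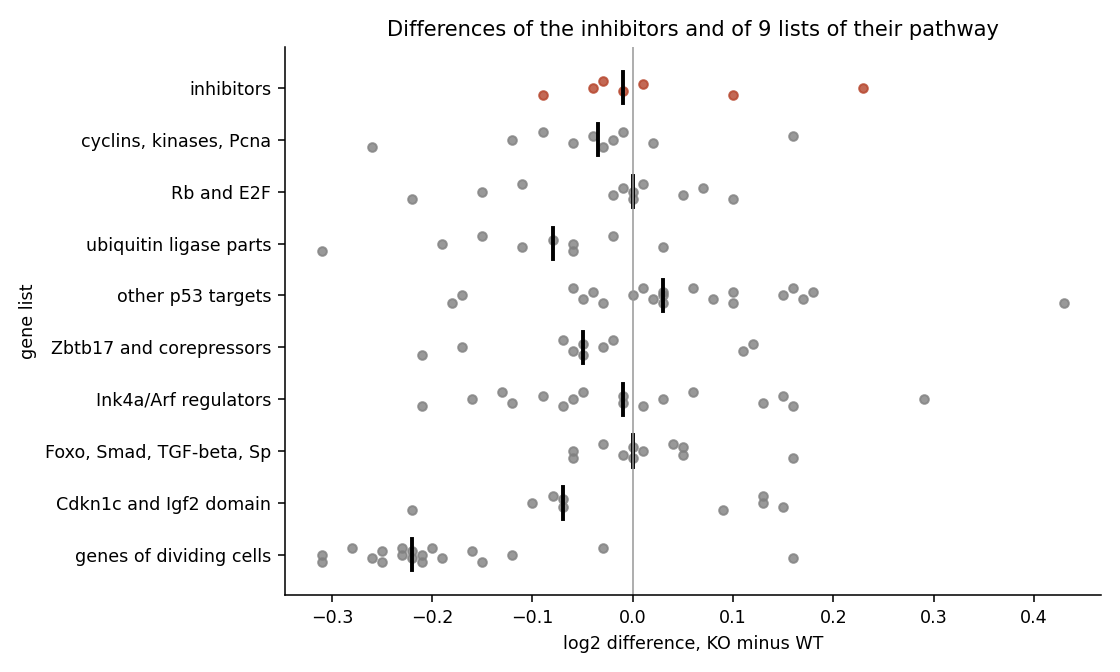
Log2 difference, KO minus WT, of each measured gene (points) in the inhibitors (red) and in 9 lists of their pathway (grey), with the list median as a black bar. The inhibitors lie on both sides of 0, from -0.09 to 0.23, and genes of dividing cells lie mostly below it, with a median of -0.219.

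The arrays as a whole were alike, with medians over all probe sets from 3.89 to 3.93 and r between 0.989 and 0.994 for every pair across the 22180 genes, which are not independent replicates. All 10 fibroblast markers lay above the median gene on all arrays. Of other cell types, 7 of 10 endothelial, 6 of 8 melanocyte and Schwann cell, 5 of 9 keratinocyte and 3 of 10 macrophage markers lay below the median gene on all arrays. So did 10051 of all 22180 genes. In the same lists 2 endothelial, 1 melanocyte and Schwann cell, 4 keratinocyte and 5 macrophage markers lay above it on all arrays, against 10085 of all genes. These counts do not tell whether such cells were present. Macrophage markers varied most, with a mean deviation from -0.56 to 0.86 on KO arrays and from -0.27 to 0.10 on WT arrays, and 9 of their 10 means were higher in KO cells, with a median log2 difference of 0.191. Endothelial markers had 7 of 10 means higher, with a median of 0.119, and the groups of Cdh5 and Esam did not overlap, with KO higher, against 0.541% of all genes. Cdh5 differed by 0.61 (unadjusted p = 8.89e-05, limma adjusted p = 0.628) and Esam by 0.18 (limma adjusted p = 0.824). Both lay below the median gene on all arrays. The 2 endothelial markers above it on all arrays, Emcn and Egfl7, differed by 0.02 and -0.13 (limma adjusted p = 0.993 and 0.852). The part of macrophage and endothelial cells in the values of the inhibitors was not tested. Levels of 3 Y-linked genes were high on 2 KO arrays and 2 WT arrays and low on the others, and with their mean as a covariate the difference of Cdkn1a was 0.224 (limma adjusted p = 0.782).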

How the data were processed

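Per the labels, biotin-labelled total RNA was run on one-colour Affymetrix arrays. The table holds the authors' deposited values for 41345 probe sets on 10 arrays; per their range, the authors' deposited values are log2 expression per probe set. The authors' background correction and normalization are not given in the sources used here, and if arrays were made equal a change in RNA content per cell would not show. Probe sets with exactly 1 symbol in the platform annotation (23521) were kept, and for each gene the one with the highest mean over all arrays, which gave 22180 genes.

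Differences, KO minus WT, came from limma 3.58.1 (lmFit, then eBayes; R 4.3.3), with p-values adjusted by Benjamini-Hochberg over all genes, and each inhibitor was tested by exact permutation, two-sided. The scripts were tested on simulated data. Relations between arrays used 100000 random permutations, adjusted over 28 relations. Lists are described by counts and medians, without a test. In each pathway list the 3 members with the smallest p-values were named, and for each inhibitor the 3 genes most alike. The inhibitors and lists were chosen with earlier results of these data known. Promoter windows came from RefSeq (GRCm38.p6). The number of arrays limits the precision. Alternatives were quantile normalization, centring, leaving out the dimmest 40% of genes, averaged or single probe sets, trend and robust eBayes, array weights, a replicate block, a Y-linked covariate and leaving out each array.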

Additional observations from a re-analysis of the deposited data

Results flagged for a closer look

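No array stood apart from its genotype for any of the 7 inhibitors or Zbtb4 by the gap to its nearest neighbour relative to the group's range (limit 0.71 for 5 arrays). Of 48 groups examined, the means of gene lists included, 3 lay beyond the limit, and chance gives about 1 in 20. The mean of ubiquitin ligase genes was highest on KO array 1 among KO arrays, at 0.08, and lowest on WT array 5 among WT arrays, at -0.03. The mean of the other p53 targets was highest on KO array 4 among KO arrays, at 0.16.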

How the results depend on the processing

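None of the 7 inhibitors passed the threshold under any of the 18 alternatives tried for each. Cdkn1a kept its sign in all 18, with differences from 0.186 to 0.286 when single arrays were left out, unadjusted p-values from 0.00491 to 0.0693 and adjusted ones from 0.624 to 0.951. Cdkn1b (-0.179 to -0.0158) and Cdkn2a (0.0466 to 0.202) kept their sign with single arrays left out and in the other settings. Cdkn1c ran from -0.137 to 0.0884, Cdkn2b from -0.0356 to 0.0798, Cdkn2c from -0.0888 to 0.0518 and Cdkn2d from -0.0797 to 0.0623, so all 4 turned their sign. Quantile normalization gave 0.0136 for Cdkn2c and 0.00149 for Cdkn2d, and centring gave -0.00562 for Cdkn2b. The cause was not tested.

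The count of genes that passed, 0 with the limma fit, was 1 without WT array 5 and 0 without any other single array, and was 1326 at an unadjusted p under 0.05. With the replicate number as a block it was 0, and the difference of Cdkn1a was 0.225 (adjusted p = 0.85), so the block changed no call. The labels do not pair the arrays, whose same-numbered deviations correlated with r from -0.045 to 0.165, and only KO arrays 1 and 5 of the 5 correlated best with the WT array of their own number. No inhibitor has a second probe set, so averaging probe sets left their values as they were. Signal over background is not known for these values.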
